A study of Mus musculus with 6 samples.

Results

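The 43 genes described here encode proteins of the cytosolic ribosome, 22 of the large subunit (Rpl) and 21 of the small subunit (Rps). They were found by symbol: a gene was taken when a probe set of the array carried its Rpl or Rps symbol with a number, optionally ending in a, x or l, and no other symbol. The brightest such probe set by its mean over 6 arrays stood for each gene. The 43 were among 18194 genes measured in this way. The symbol rule uses no measured difference between the groups, but the family was chosen with earlier results of these data known. Of 77 protein-coding RefSeq symbols that match the same pattern, the others had no probe set with a single symbol, among them Rpl3, Rpl5 and Rpl10.

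Cytosolic ribosomes translate the messenger RNAs of the cell. A small subunit, which reads the messenger RNA, joins a large subunit, which forms the peptide bond, and each is built from ribosomal RNA and many proteins made in near equal amounts. Many of their messenger RNAs begin with a run of pyrimidines, the TOP motif, through which mTORC1 signalling governs their translation, and in skeletal muscle the building of ribosomes is known to accompany growth of the fibres.

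Quadriceps muscle of mice of the C57/Bl6 strain, aged 2 months, was hybridised to Affymetrix mouse arrays, 1 array for each of 6 samples. Knockout muscle (3 samples) carried Pofut1 flox/flox and a skeletal α actin cre transgene, and control muscle (3 samples) carried the same cre with wild-type Pofut1. All 6 samples therefore carried the cre, whose promoter is active in skeletal muscle fibres, so other cells of the tissue are not its target. Pofut1 encodes the enzyme that adds O-fucose to Notch receptors and other proteins with EGF-like repeats, and the comparison asks what its loss from muscle alters. Whole muscle was measured, and in such bulk RNA fewer cells of a type and less RNA per cell cannot be told apart.

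Both arrays with the highest 3′ over 5′ intensity ratio of Gapdh, a measure of how far cDNA reaches toward the 5′ end, bear on all that follows. The ratio was 3.70 in knockout replicate 2 and 10.5 in the array labelled control replicate 3, and 1.73 to 1.97 in the remaining 4 arrays. The correlation of the array labelled control replicate 3 with the others was 0.940 to 0.945, against 0.980 to 0.991 among the other 5. The targeted gene, Pofut1, was lowest in that array, against its label, and had a log2 fold change of -0.02 ± 0.52 (SE) over 6 arrays and -0.66 without it. All 12 skeletal muscle markers checked against the tissue label were above background, the 95th percentile of genes restricted to other tissues, an intensity of 82.6. Of these 12, 11 were higher in the knockout, with a median log2 fold change of 0.11, against 53.9% of all genes above background. Without the array labelled control replicate 3, 9 were higher, with a median of 0.11, against 36.2% of all genes above background. The summed intensity of the 12 was 109493 to 117509 in knockout samples and 102581 to 109228 in control samples, without overlap. The sum of 8 endothelial markers, all above background, did not overlap either, at 2418 to 2509 in knockout samples and 2096 to 2324 in control samples. Among these 8, 5 were higher in the knockout and 3 lower. Sums overlapped between the groups for macrophage markers (10 of 10 above background), at 6815 to 11517 in knockout samples and 8055 to 13224 in control samples. They overlapped for adipocyte markers (4 of 5), at 5088 to 9195 in knockout samples and 5499 to 6679 in control samples, and for fibroblast markers (8 of 8), at 14075 to 21022 in knockout samples and 15134 to 18372 in control samples. Of measured erythroid markers 1 of 3 was above background, and of lymphocyte markers 0 of 8. Both groups mixed sexes: Xist, transcribed in females, had an intensity of 1349 in knockout replicate 2, against 1414 in control replicate 2. No other array exceeded 67.6, so the low knockout array described below was the only knockout sample with the female pattern. Control replicate 2, with the same pattern, had a median difference of 0.07 from the gene medians among members above background. In the knockout group the female pattern and the highest Gapdh ratio fell on the same array, so they cannot be told apart. The part of sex in the low values, and of cell type markers in the results below, was not tested.

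Pyrimidine runs were searched for near the annotated start of each member, a looser rule than the TOP motif, which begins the messenger RNA. RefSeq promoter windows of assembly GRCm38.p6 were found for 37 of the 43 genes. In the stretch from 25 bases before the first listed start to 20 bases after it, 24 of 37 (64.9%) held a C followed by at least 5 bases that were each C or T on the gene's own strand. The same held for 8797 of 27025 promoters in the table (32.6%). Some runs lie before the start, as in Rps27l, and so outside the annotated messenger RNA. The count is therefore not one of TOP motifs. The windows below are shown for genes whose values are described further on, 5′ to 3′ on the gene's strand, with every such run in capitals. They include Rpl3l, the muscle paralog of Rpl3, in which no such run occurs. Core members described further on also lack one, among them Rpl22, Rpl41, Rps3, Rps4x and Rps19, whose windows are not shown.
Rps6, chr4:86857348-86857392, minus strand: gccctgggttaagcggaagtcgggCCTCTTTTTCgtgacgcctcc
Rpl38, chr11:114668555-114668599, plus strand: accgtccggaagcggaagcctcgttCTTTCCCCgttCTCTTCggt
Rps10, chr17:27635225-27635269, minus strand: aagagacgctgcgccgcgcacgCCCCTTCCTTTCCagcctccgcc
Rps26, chr10:128626487-128626531, minus strand: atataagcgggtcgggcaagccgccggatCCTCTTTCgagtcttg
Rps27l, chr9:66946061-66946105, plus strand: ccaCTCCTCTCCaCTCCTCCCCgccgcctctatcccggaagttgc
Rpl3l, chr17:24727801-24727845, plus strand: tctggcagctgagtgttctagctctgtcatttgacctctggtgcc

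Other promoter letters were searched on both strands from 250 bases before to 50 after the start. CCGGAAG, which ETS-family factors such as GABP bind, was in 18 of 37 members' windows (48.6%) and in 9.12% of all windows. GGGCGG, the letters bound by Sp1, was in 48.6% of members' windows and 35.9% of all windows, and none of these letter strings contains another. AAGATGGC, bound by YY1, was in 5.41% against 2.88%, and TATAAA was in 8.11% against 14.2%. The genes themselves are spread over 17 chromosomes, with at most 6 on any one.

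No ribosomal protein gene was called different between knockout and control muscle, which does not show that their levels were the same. Over all 6 arrays the median log2 fold change of the 43 genes, knockout over control, was 0.01, against -0.01 for all 18194 genes, and single genes ran from -0.15 for Rpl8 to 0.30 for Rpl39l. Values were higher in the knockout for 24 genes and lower for 19. The share higher was 55.8% among the members and 46.3% among all genes, and 52.6% of the 38 members above background against 53.9% of all genes above background. None of the 43 passed limma's test at an adjusted p of 0.05, and none of the 18194 genes did (0% called), with a lowest adjusted p of 0.971. At an unadjusted p under 0.05 there were 0 members, against 469 genes (2.58%), and the same model without moderation called 0 members after adjustment. The 95% interval of every member spanned 0, and the widest reached 0.92 log2 units to either side of its estimate. Only Rpl38 had groups that did not overlap, against 9.01% of all genes. The median of the 43 depended on the arrays kept. It was -0.10 without the array labelled control replicate 3 and 0.05 without knockout replicate 2.

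**Figure D1:**
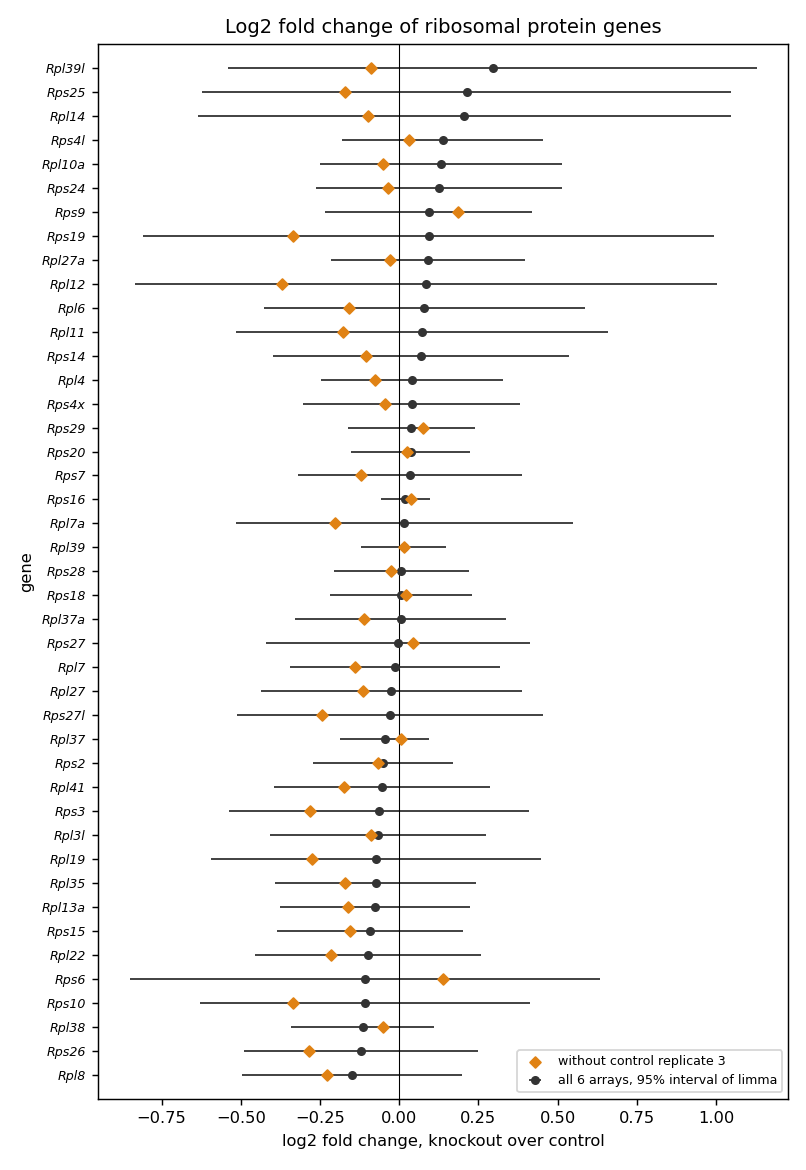
Log2 fold change of each ribosomal protein gene, knockout over control (x axis), by gene (y axis). Points with bars are limma estimates over all 6 arrays with 95% intervals, all of which span 0, and diamonds are estimates without control replicate 3, which lie below 0 for 33 of 43 genes.

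Arrays of the same group differed more than the medians of the groups did. Among the 38 members above background, the median difference of an array from the gene's median over 6 arrays was -0.24 log2 units in knockout replicate 2 (quartiles -0.31 to -0.10). It was -0.29 in the array labelled control replicate 3 (quartiles -0.51 to -0.07). The medians of the other arrays were 0.03 and -0.003 in knockout replicates 1 and 3, and 0.02 and 0.07 in control replicates 1 and 2. For all 9720 genes above background the medians were -0.03 in knockout replicate 2 and -0.16 in the array labelled control replicate 3.

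These arrays were low gene after gene. Knockout replicate 2 lay below the gene's median for 33 of the 38 and the array labelled control replicate 3 for 32. Both were the lowest pair of arrays in 27 of 38 members (71.1%), against 24.3% of all genes above background. The same pair was lowest for 31 of 76 mitochondrial ribosomal proteins (40.8%), which serve the separate ribosome inside mitochondria. It was also lowest for 18 of 37 proteasome subunits (48.6%), which form the cell's main protease and are likewise made in fixed proportion. These are counts over genes of the same 6 arrays, with no test, and the part of the 3′ over 5′ ratio in them was not tested.

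**Figure D2:**
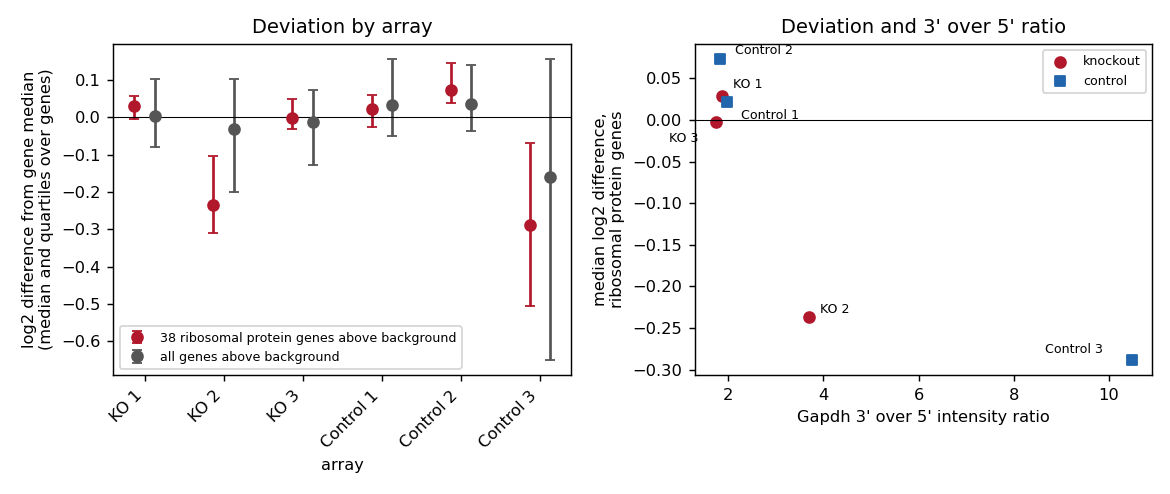
Left, log2 difference from the gene's median over 6 arrays (y axis) by array (x axis), as medians with quartiles over 38 ribosomal protein genes and over all genes above background. Right, the ribosomal protein medians (y axis) against the Gapdh 3′ over 5′ ratio (x axis), where knockout replicate 2 at 3.70 and control replicate 3 at 10.5 lie lowest, at -0.24 and -0.29.

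Spread within groups was smaller on the other arrays. Over the 38 members the median within-group SD was 0.05 log2 units on the other 4 arrays and 0.20 on all 6. For all genes above background it was 0.13 on those 4 arrays and 0.29 on all 6. The arrays left out were the lowest for most members, which lowers the SD by construction. Fewer arrays per group also enter it, so the SDs on 4 and 6 arrays are not like measures.

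With 1 low array in each group, the balance of the comparison depended on which arrays were kept, also among those that were not low. Without knockout replicate 1 or 3 the median of the 43 was -0.04 or -0.02, with 15 or 17 higher in the knockout. Without control replicate 1 or 2 it was 0.02 or 0.05, with 26 or 31 higher. Of all genes 46.3% to 47.6% were higher in these fits. Without the array labelled control replicate 3 the median of the 43 became -0.10, and 33 of 43 were lower in the knockout. Most genes above background were then lower too: the median was -0.11 for the 38 members above background, 84.2% of them lower, against -0.07 for all genes above background, 63.8% of them lower. Without knockout replicate 2 the median of the 43 was 0.05 and 34 of 43 were higher in the knockout. Among those above background 84.2% of members were then higher, against 55.2% of all genes. Without both arrays the median of the 43 was -0.03 and 26 of 43 were lower. At an unadjusted limma p under 0.05, 4 of the 43 were then lower and 0 higher, against 858 and 504 of 18194 genes. The median of members above background was then -0.04, with 65.8% lower, and that of all genes above background was -0.06, with 60.9% lower. No member passed the test in any of these fits, and the lowest adjusted p among members was 0.802 without the array labelled control replicate 3, 0.977 without knockout replicate 2 and 0.663 without both.

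**Figure D3:**
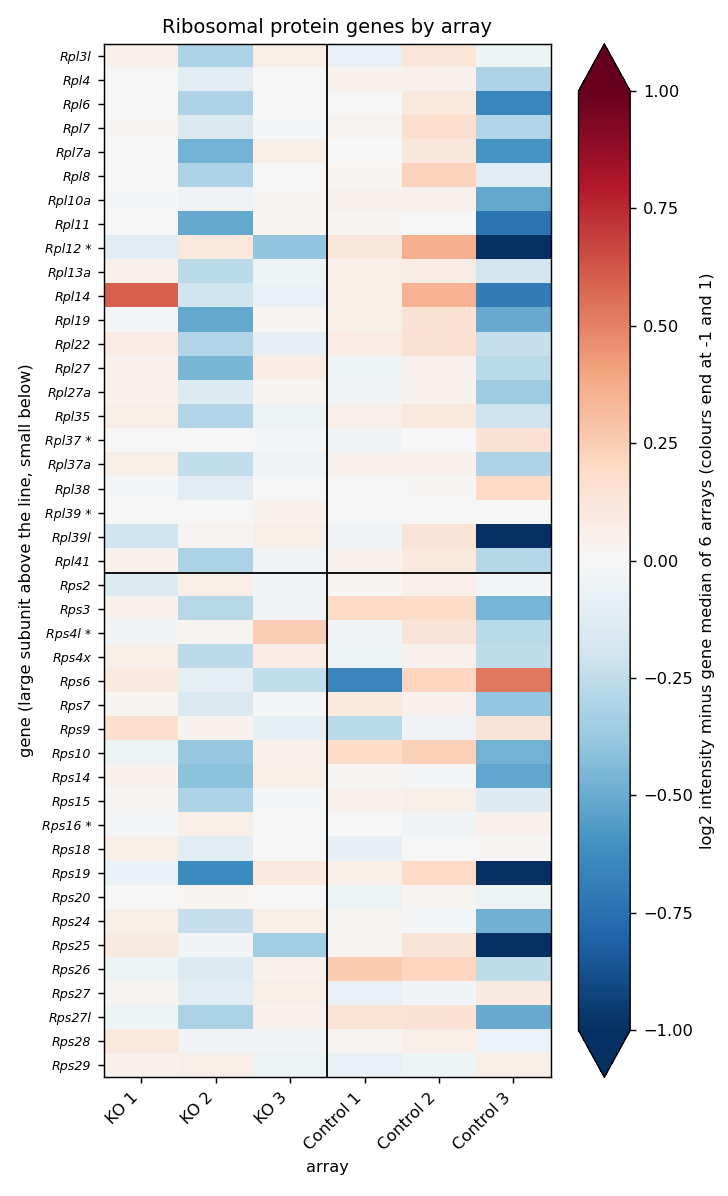
Log2 intensity minus the gene's median over 6 arrays (colour, ending at -1 and 1) for each of 43 genes (rows) in 3 knockout and 3 control arrays (columns), with an asterisk at genes below background. Knockout replicate 2 and control replicate 3 are below the median in 33 and 32 of the 38 genes above background.

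Without the array labelled control replicate 3, 16 members had knockout values all below both control values, against 14.2% of all genes, and 0 had them all above, against 10.3%. Of the 16, 15 were above background (39.5% of 38), against 28.1% of all genes above background in either direction. The 16 were Rpl4, Rpl6, Rpl7, Rpl8, Rpl10a, Rpl12, Rpl13a, Rpl19, Rpl22 and Rpl38 of the large subunit and Rps3, Rps7, Rps10, Rps15, Rps26 and Rps27l of the small subunit. At an unadjusted p under 0.05 1 member was lower in the knockout, Rps26, against 3.95% of all genes. The subunits were not alike in count: 19 of 19 large subunit genes above background were lower in the knockout, with a median log2 fold change of -0.14 and a range of -0.28 to -0.03. Among small subunit genes above background 13 of 19 (68.4%) were lower, with a median of -0.07 and a range of -0.34 to 0.19. Of all genes above background 63.8% were lower in this fit. Both counts use the brightest probe set of each gene. Dimmer ones above background were lower for Rps9 (-0.40), Rps18 (-0.33 and -0.30) and Rps29 (-0.22 and -0.25), which were counted as higher. A dimmer one was higher for Rpl41 (0.06), Rps20 (0.07) and Rps24 (0.08). The difference between the subunits was not tested. Over all 6 arrays, 10 of 19 large and 8 of 19 small subunit genes above background were lower.

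Among large subunit members, Rpl38, which in mice is needed for translation of a set of Hox messenger RNAs, had intensities of 6229, 5884 and 6306 in knockout replicates 1 to 3. Its control intensities were 6339, 6376 and 7264. Every knockout value lay below every control value, with a narrow gap to control replicate 1. Unlike most members, it was highest in the array labelled control replicate 3. The log2 fold change was -0.12 ± 0.10 (SE; 95% interval -0.34 to 0.11), and -0.05 without that array.

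Rpl8, which lies close to the peptidyl transferase centre, had intensities of 2196, 1773 and 2205 in knockout samples, against 2229, 2583 and 2035 in control samples. Knockout replicate 2 was lowest and the groups overlapped through the array labelled control replicate 3. Its log2 fold change of -0.15 ± 0.15 (SE; 95% interval -0.50 to 0.20) was the lowest of the 43. Without the array labelled control replicate 3 it was -0.23.

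Rpl11, which together with Rpl5 can bind Mdm2 and so stabilise p53, had 3278, 2302 and 3334 in knockout samples, against 3332, 3301 and 1972 in control samples. Here 4 arrays lay within a narrow band and 1 array of each group lay well below it, the shape seen in most of the family. The log2 fold change was 0.07 ± 0.25 (SE), and -0.18 without the array labelled control replicate 3.

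Rpl10a, a protein of the L1 stalk, had 5499, 5404 and 5574 in knockout samples, against 5672, 5706 and 3879 in control samples. The knockout values were close to each other, and 1 low control array set the sign: the log2 fold change was 0.13 ± 0.16 (SE) over 6 arrays and -0.05 without that array. Rpl13a, which in human cells can leave the ribosome to silence inflammatory messenger RNAs, had 4867, 3905 and 4540 in knockout samples, against 4916, 4960 and 4148 in control samples. The lowest array of each group was again the same as for Rpl11, with a log2 fold change of -0.08 ± 0.13 (SE), and -0.16 without the array labelled control replicate 3.

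Rpl22, which mouse T cell development requires, had 3518, 2716 and 3133 in knockout samples, against 3520, 3690 and 2827 in control samples. Knockout replicate 1 equalled the nearest control sample within a few units, and the log2 fold change was -0.10 ± 0.15 (SE) over all arrays and -0.21 without the array labelled control replicate 3. Rpl41, a very short basic peptide of the large subunit, had 7375, 5793 and 7040 in knockout samples, against 7375, 7734 and 5907 in control samples. The lowest array of each group was the same as for Rpl11, and the log2 fold change was -0.05 ± 0.14 (SE), and -0.17 without the array labelled control replicate 3.

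Rpl14 was read at lower intensities, with a wide spread: 242.4, 139.7 and 152.8 in knockout samples, against 167.8, 204.0 and 98.5 in control samples. The groups overlapped, and its log2 fold change of 0.21 ± 0.36 (SE) became -0.10 without the array labelled control replicate 3.

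Among small subunit members, Rps26, which lines the channel through which messenger RNA leaves the small subunit, had 3742, 3500 and 3973 in knockout samples. Its control intensities were 4631, 4464 and 3240. Control replicates 1 and 2 lay above all knockout samples, while the array labelled control replicate 3 lay below them. The log2 fold change was -0.12 ± 0.16 (SE), and -0.28 ± 0.10 (SE) without that array, where the unadjusted p of limma was 0.024 and the adjusted p 0.802.

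Rps10 and Rps3 had the same arrangement. Rps10, a protein that is ubiquitylated on stalled ribosomes, had 2489, 1981 and 2669 in knockout samples, against 2924, 3040 and 1857 in control samples. The difference was -0.11 ± 0.22 on the log2 scale (SE) over all arrays and -0.34 without the array labelled control replicate 3, the lowest of the members above background in that fit. Rps3, which sits at the entry of the messenger RNA channel, had 3690, 2978 and 3528 in knockout samples, against 4132, 4102 and 2613 in control samples. Over all arrays it differed by -0.06 ± 0.20 on the log2 scale (SE), without that array by -0.28, and by -0.40 over all arrays when read by a probe set whose ID has no suffix for shared binding.

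Rps19, the gene most often mutated in Diamond-Blackfan anaemia in humans, had the widest within-group SD of the 43, 0.59 log2 units. Its intensities were 1655, 1113 and 1852 in knockout samples, against 1810, 1990 and 780 in control samples. The array labelled control replicate 3 was 1.15 log2 units below the gene's median and knockout replicate 2 was 0.64 units below it. The log2 fold change was 0.09 ± 0.38 (SE), and -0.33 without the array labelled control replicate 3.

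Rps14, whose partial loss contributes to the anaemia of the 5q- syndrome in humans, had 3060, 2254 and 3123 in knockout samples, against 3013, 2965 and 2090 in control samples. Both low arrays stood at similar levels below the rest, and its log2 fold change was 0.07 ± 0.20 (SE), and -0.10 without the array labelled control replicate 3. Rps24, another gene of Diamond-Blackfan anaemia in humans, had 5766, 4706 and 5760 in knockout samples, against 5569, 5466 and 3956 in control samples. The difference of 0.13 ± 0.16 on the log2 scale (SE) became -0.03 without the array labelled control replicate 3. By a dimmer probe set whose ID has no suffix for shared binding it was 0.43, a value that rested on the same array and was 0.08 without it.

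Rps25, which some viral messenger RNAs need for internal initiation, had 281.6, 260.0 and 208.0 in knockout samples, against 269.3, 289.6 and 125.5 in control samples. Its log2 fold change was 0.21 ± 0.35 (SE) with the low control array and -0.17 without it.

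A few members did not share the low values. Rps6, the small subunit protein that S6 kinases phosphorylate downstream of mTORC1, had 446.7, 391.2 and 352.4 in knockout samples, against 265.0, 484.8 and 601.1 in control samples. It was highest in the array labelled control replicate 3, 0.52 log2 units above its median, and lowest in control replicate 1, so the control samples spanned all the knockout samples. Its log2 fold change was -0.11 ± 0.31 (SE), and 0.14 without that array.

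Rps29, a small zinc-binding protein in the head of the small subunit, had 7657, 7719 and 7179 in knockout samples, against 7070, 7184 and 7709 in control samples. Rps20, another protein of the head, had 6853, 6950 and 6834 in knockout samples, against 6602, 6931 and 6601 in control samples. Both were nearly level over all 6 arrays, with log2 fold changes of 0.04 ± 0.09 for Rps29 and 0.04 ± 0.08 for Rps20 (SE). Without the array labelled control replicate 3 they had 0.08 and 0.02. Averaged over all its probe sets, Rps29 had -0.10 over 6 arrays. In all, 6 of the 38 members above background lay above their median in the array labelled control replicate 3, namely Rpl38, Rps6, Rps9, Rps18, Rps27 and Rps29, and 5 did so in knockout replicate 2, namely Rpl39l, Rps2, Rps9, Rps20 and Rps29. These counts rest on the brightest probe set of each gene. In the array labelled control replicate 3, dimmer probe sets above background lay at -0.60 and -0.69 for Rps18, -0.03 and -0.03 for Rps29, and -1.56 for Rps9. In knockout replicate 2 they lay at -0.12 and -0.18 for Rps29, -0.69 for Rps9 and 0.09 for Rps20. Rps2, Rps9 and Rps18 are named after their values were seen.

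Paralogs replace a core protein in certain tissues. Rpl3l, expressed in skeletal muscle and heart in place of Rpl3, had intensities of 1885, 1477 and 1910 in knockout samples, against 1737, 1986 and 1769 in control samples. Knockout replicate 2 was lowest, at 0.31 log2 units below the median. The array labelled control replicate 3 was only 0.05 units below it, so this gene showed the low value of 1 of these arrays and little of the other. Knockout over control, the log2 fold change was -0.07 ± 0.14 (SE), and -0.09 without the array labelled control replicate 3.

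Rps27l, a paralog of Rps27 that p53 induces in human cells, had 2790, 2312 and 2956 in knockout samples, against 3156, 3177 and 2022 in control samples. Control replicates 1 and 2 lay above all knockout samples, and the log2 fold change was -0.03 ± 0.21 (SE) over 6 arrays and -0.25 without the array labelled control replicate 3. Rps27 itself was near background, with 97.8, 89.3 and 100.1 in knockout samples, against 91.3, 94.3 and 102.1 in control samples. Its groups overlapped closely, with a log2 fold change of -0.003 ± 0.18 (SE), and 0.04 without the array labelled control replicate 3.

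Rpl39l, known chiefly from male germ cells, had 116.7, 136.1 and 139.4 in knockout samples, against 131.4, 146.5 and 62.2 in control samples. It had the highest log2 fold change of the 43, 0.30 ± 0.35 (SE; 95% interval -0.54 to 1.13), which rested on 1 control array and was -0.09 without it. Its core counterpart Rpl39 was below background, at 51.1 to 52.3 in knockout samples and 51.0 to 51.1 in control samples.

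Rps4x, the X-linked core protein, had 2397, 1917 and 2420 in knockout samples, against 2240, 2369 and 1928 in control samples. The groups overlapped, with a log2 fold change of 0.04 ± 0.15 (SE) that became -0.05 without the array labelled control replicate 3. Its paralog Rps4l on chromosome 6 was below background, at 57.4, 59.3 and 69.2 in knockout samples, against 57.4, 63.6 and 48.5 in control samples. That gene's log2 fold change of 0.14 ± 0.13 (SE), or 0.03 without the array labelled control replicate 3, is therefore a difference between dim values.

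Dim members show what a probe set reads, not how much of the protein's messenger RNA is present. The 5 members below background were Rpl12, Rpl37, Rpl39, Rps16 and Rps4l, of which 4 (all but Rps4l) also appear on probe sets that the annotation assigns to several symbols. Rps16 had 38.8 to 40.8 in knockout samples and 38.2 to 40.1 in control samples, and Rpl37 had 46.1 to 46.6 in knockout samples and 45.8 to 51.6 in control samples. Of the 43 genes, 15 are also listed on such shared probe sets. Pseudogenes of ribosomal proteins are many and nearly identical to their sources, so values of single genes are uncertain where a probe set can bind copies.

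Those shared probe sets, left out by the selection, gave a similar picture. There were 109 with at least 1 symbol of the family and 94 of them were above background. Their median log2 fold change was 0.02 over all arrays and -0.12 without the array labelled control replicate 3, with 72 of 94 lower in the knockout. Their median difference from the probe set's own median was -0.15 in knockout replicate 2 and -0.27 in the array labelled control replicate 3.

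How low an array lay also differed between probe sets of a gene. The 43 genes had 96 single-symbol probe sets, and 19 genes had at least 2 above background. Within those genes the range of the difference of the array labelled control replicate 3 was 0.35 log2 units at the median and 1.75 at most, for Rps10, whose probe sets lay between -1.98 and -0.23. For Rps9, named after its values were seen, 1 probe set lay at 0.13 and the other at -1.56, and the log2 fold change without that array was 0.19 by the brighter and -0.40 by the other. In 5 genes (Rpl41, Rps9, Rps18, Rps24 and Rps29) the probe sets differed in sign in that fit.

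The suffix of a probe set ID records how far its probes can bind other transcripts. The 36 probe sets above background that end in _x_at, which may cross-hybridise, had a median difference of -0.20 in the array labelled control replicate 3, against -0.47 for the other 40. In knockout replicate 2 the medians were -0.21 and -0.31. Single probe sets of both kinds lay above their own median in the array labelled control replicate 3, by up to 0.20 for those ending in _x_at and up to 0.52 for the others.

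**Figure D4:**
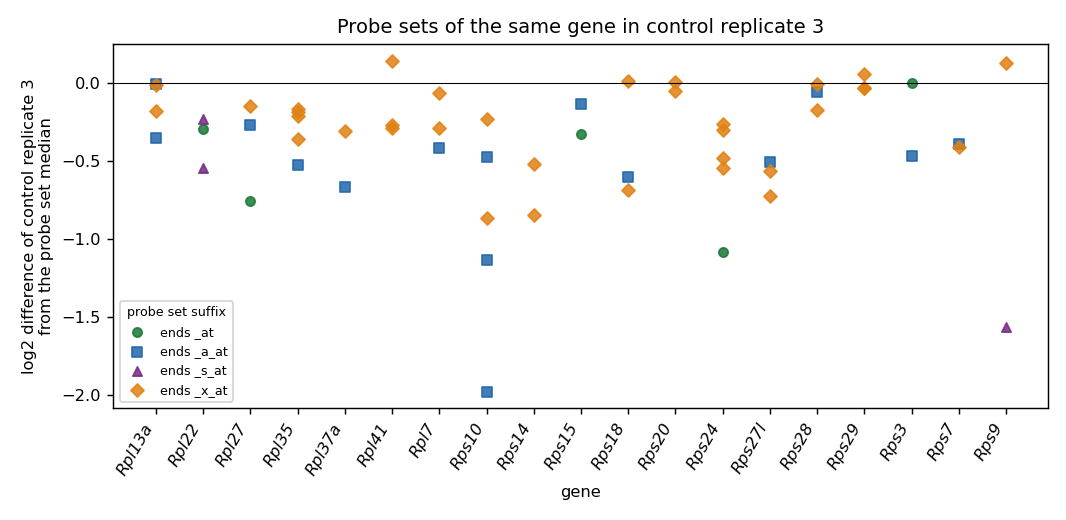
Log2 difference of control replicate 3 from each probe set's own median over 6 arrays (y axis), for the genes with at least 2 probe sets above background (x axis), with markers by probe set ID ending. Probe sets of 1 gene spread by 0.35 log2 units at the median and by up to 1.75, for Rps10.

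Members with and without a pyrimidine run near the start, whether before or after it, were both low in these arrays. The 22 members above background with the run had median differences of -0.14 in knockout replicate 2 and -0.33 in the array labelled control replicate 3. The 11 without it had -0.29 in knockout replicate 2 and -0.29 in the array labelled control replicate 3. Without the array labelled control replicate 3, the median log2 fold changes were -0.09 with the run and -0.12 without it. The difference between these sets of members was not tested.

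Ribosomal proteins whose symbols fall outside the pattern were measured for 4 of 7 listed genes, and none passed the test. Rpsa, a small subunit protein also known as the laminin receptor, had 5057, 4767 and 4760 in knockout samples, against 6146, 5897 and 6208 in control samples. The groups did not overlap, and the array labelled control replicate 3 was the highest of all. Its difference of -0.32 ± 0.09 on the log2 scale (SE) had an unadjusted limma p of 0.007 and an adjusted p of 0.971. Rplp2, a protein of the stalk that recruits translation factors, had 6838, 4911 and 6440 in knockout samples, against 7076, 6905 and 4051 in control samples, the shape seen in most members. It had a log2 fold change of 0.04, and -0.22 without the array labelled control replicate 3. The stalk protein Rplp0 was at 0.00 over all arrays and Fau, the precursor of a small subunit protein, at -0.01, and without that array they were at -0.22 and -0.28. The median of these 4 was 0.00 over all arrays and -0.25 without the array labelled control replicate 3, with 4 of 4 lower. Of 4 listed paralogs outside the pattern, Rpl7l1 and Rpl22l1 were measured, at 0.07 and 0.02 over all arrays and at -0.14 and -0.13 without the array labelled control replicate 3.

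Genes that make or use ribosomes also had no call. Of 30 ribosome biogenesis factors 18 were lower in the knockout, with a median of -0.04, and 26 were lower without the array labelled control replicate 3, with a median of -0.17. Of all genes above background 46.1% were lower over all arrays and 63.8% without that array, with medians of 0.03 and -0.07. The smallest p among the biogenesis factors belonged to Nop2, a methyltransferase of large subunit ribosomal RNA. Its intensities were 179, 172 and 173 in knockout samples, against 252, 265 and 388 in control samples. Those groups did not overlap, and the log2 fold change was -0.76 ± 0.23 (SE), and -0.57 without the array labelled control replicate 3. Tsr1, which acts late in making the small subunit, had -0.48 ± 0.20 (SE), and -0.30 without that array.

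Translation factors with TOP messenger RNAs, 18 of 19 listed, had a median of 0.05, and -0.07 without the array labelled control replicate 3. Then 12 of 18 (66.7%) were lower, near the 63.8% of all genes above background, whose median was also -0.07. Pabpc1, the cytoplasmic poly(A)-binding protein, had -0.35 ± 0.18 (SE) over all arrays and -0.49 without that array. Hnrnpa1, an RNA-binding protein of splicing, had 0.39 ± 0.24 (SE) and 0.25. For RNA polymerase I and III genes, 21 of 24 listed, the medians were -0.02 over all arrays and -0.07 without that array. Taf1c, of the polymerase I selectivity factor, had -0.70 ± 0.27 (SE) over all arrays and -0.47 without it. Polr3gl, a polymerase III subunit, had 0.33 ± 0.14 (SE) and 0.27. For mTORC1 pathway genes, 15 of 16 listed, the medians were 0.04 over all arrays and -0.12 without that array, with 12 of 15 then lower. Rps6kb2 and Max had the smallest p among them. Rps6kb2, at intensities of 91.5 to 187.2, had -0.47 ± 0.28 (SE) over all arrays and -0.70 without that array. Max had 0.34 ± 0.33 (SE) and -0.03. None of the genes in these lists passed the test.

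Other large complexes had more lower than higher values. Without the array labelled control replicate 3, 67 of 76 mitochondrial ribosomal proteins were lower in the knockout, with a median of -0.16, and 31 of 39 proteasome subunits, with a median of -0.10, where 63.8% of all genes above background were lower. Over all 6 arrays the medians were -0.09 for the mitochondrial ribosomal proteins, with 51 of 76 lower, and -0.04 for the proteasome subunits, with 24 of 39 lower, where 46.1% of all genes above background and 19 of the 43 members were lower. No difference between the families was tested.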

How the data were processed

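RNA from quadriceps was labelled from 25 ng with the NuGEN Ovation system, per the labels' protocols. The authors deposited probe set intensities on a linear scale, here between 37.2 and 16069. GCOS and RMA are named in the submitters' processing notes, with versions not given in the sources used here. Whether RMA values were converted back from a log scale is unknown. An annotation of the platform gave 34958 of 45101 probe sets a single symbol and 932 several, and left 9211 unlisted. Entrez identifiers of all 43 members are in RefSeq's GRCm38.p6 gene table, and 43 symbols were unchanged.

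The log2 of each intensity, with no pseudocount, entered 1 limma model over 18194 genes (version 3.58.1, R 4.3.3), with lmFit, a trended eBayes and the group alone as predictor. Two-sided p-values were adjusted by Benjamini and Hochberg's method across the 18194 genes, and 0.05 was the threshold. The fit was first run on data simulated with independent noise for each gene. Those data held no shift shared by the genes of an array, so that run does not bear on such shifts. Nothing in the labels says that samples of a group are separate animals, so p-values measure only the spread between these samples. An exact permutation test of 3 against 3 cannot give less than 0.1, and the number of arrays limits the precision. Background was the 95th percentile of 44 measured genes, of 48 listed, restricted to other tissues. Probe set brightness served to choose probe sets, to set background and to name members, and was not read as transcript amount between genes.

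The members, gene lists and tests were chosen with earlier results of these data known. Members were named by smallest p, extreme fold change, extreme brightness, paralogy or known role, and from the other lists by smallest p. Alternatives were a replicate block, normalization, variance model, array weights, dim genes, probe set choice, sex pattern, the Gapdh ratio and leaving out arrays.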

Additional observations from a re-analysis of the deposited data

How the results depend on the processing

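No member passed the test under any alternative run, with the lowest adjusted p among members, 0.378, reached with array weights. The median log2 fold change of the 43, 0.01 over all arrays, moved by less than the spread between arrays, to -0.05 with array weights, to -0.07 with the Gapdh ratio as a covariate, and between -0.10 and 0.05 when 1 array was left out. Members higher in the knockout, 24 over all arrays, numbered 14 with the Gapdh ratio as a covariate and between 10 (without the array labelled control replicate 3) and 34 (without knockout replicate 2) when 1 array was left out; without knockout replicate 1 they numbered 15. Members with no overlap, 1 over all arrays, numbered 2 after quantile normalization, 0 after centring on array medians, 21 (48.8%) without both arrays of high Gapdh ratio, where 38.3% of all genes and 43.3% of those above background did not overlap, and between 1 and 16 when 1 array was left out, where 15.2% to 24.5% of all genes did not overlap. Of the 21 without both arrays, 17 were lower in the knockout and 4 higher, against 4148 and 2814 of all genes. Members with no overlap numbered 2 without knockout replicate 1, control replicate 1 or control replicate 2, and 5 without knockout replicate 2. The cause of these shifts was not tested, though with fewer arrays a lack of overlap is met more easily. With the replicate number as a block, 24 members were higher, 1 did not overlap and 0 were called, and no other call changed. Replicate numbers did not pair the samples: deviations of same-numbered samples correlated at 0.19, -0.15 and -0.11, and only replicate 1 of the knockout correlated best with its own number. The sign of the log2 fold change differed from that over all arrays in 20 of 43 members without the array labelled control replicate 3, in 17 with array weights and in 7 with the mean of a gene's probe sets. Dim values and cross-hybridising probe sets limit what single genes can show.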
